A study of Mus musculus with 69 samples.

Results

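The histone variant H3.3 is encoded by the genes H3f3a and H3f3b, and its chaperones are the proteins that bind it before it enters a nucleosome. The members described here are 10 of the 16263 genes in the mRNA-seq count table, taken from a list of names with no threshold on a measured value. They are the 2 H3.3 genes, 4 genes of the HIRA complex (Hira, Ubn1, Ubn2 and Cabin1), 2 genes of the ATRX-DAXX complex (Atrx and Daxx) and 2 genes of the ASF1 family (Asf1a and Asf1b). All 10 were in the table and all 10 were among the 14061 genes with enough counts to be tested. Levels were read from 6 mRNA-seq libraries and open chromatin from 6 ATAC-seq libraries, with 2 libraries of each line in each assay.

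The control line was wild-type (WT) J1, a mouse embryonic stem cell (ESC) line of the 129S4/SvJae strain derived from the inner cell mass. The lines Mut18 and Mut43 were H3.3K27R derivatives of J1, in which CRISPR-Cas9 editing of H3f3a and H3f3b replaced lysine 27 of H3.3 with arginine. Each mutant line was 1 clone, and no edited line with an unchanged lysine 27 was among the samples compared, so an effect of the substitution and an effect of cloning or editing cannot be told apart. All lines were grown on feeder cells, which were removed by passaging without feeders before harvest. Each library came from its own culture of a line. For 1 clone against WT and for clone against clone, the p-values measure the spread between these cultures. Over both clones, the 4 mutant libraries were counted as independent, so the spread there mixes that between cultures and that between the 2 clones. None of the p-values measures the spread over further independently edited clones.

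H3.3 differs from the canonical H3 proteins in only a few residues, but its genes carry introns and are expressed throughout the cell cycle, so the protein can be placed into chromatin outside DNA replication. The HIRA complex deposits H3.3 mainly at promoters, enhancers and transcribed genes, and the ATRX-DAXX complex deposits it at telomeres, pericentric repeats and silenced retrotransposons. ASF1 proteins hold newly made H3-H4 dimers and hand them to HIRA for H3.3 or to the CAF-1 complex for canonical H3. ESCs depend on H3.3 for the chromatin of active and of bivalent genes.

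The 6 mRNA-seq libraries held between 14992756 and 15143998 counts (median 15069149), so depth was nearly equal. The ESC marker Pou5f1 had 12092 and 12814 normalized counts in WT and 10007 to 10618 in the mutants. Of 10 ESC markers, 8 were higher and 2, Pou5f1 among them, were lower in the mutants, none by more than 2-fold. All counts of markers called here (edgeR adjusted p under 0.05) are to be read against 23.5% of all tested genes higher and 24.5% lower. By more than 2-fold as well, 8.93% of all tested genes differed. Fibroblast markers, which feeder cells express, were lower in the mutants in 5 of the 8 that were tested, 3 of them by more than 2-fold, and their summed level was 188 and 271 CPM (counts scaled to library size) in WT against 125 to 166 in the mutants. Lum and Fap were the fibroblast markers with too few counts to be tested. Of 7 primitive endoderm markers tested, 1 was higher and 3 were lower, with a summed level of 101 and 156 CPM in WT against 81.7 to 89.4 in the mutants. Col4a1, among those lower, made up the largest part of this sum (1161 and 1936 normalized counts in WT, 1009.5 to 1093 in the mutants). The higher marker was Gata4 (log2 fold change 0.50, edgeR adjusted p = 0.0347). The summed fibroblast and endoderm levels were higher in both WT libraries than in every mutant library, but the WT libraries also differed from each other. Col3a1 had 842.6 normalized counts in WT replicate 1 and 256.8 in WT replicate 2, against 98.4 to 148.7 in the mutants. Col1a2 in WT replicate 2 (509.7) lay inside the mutant range (327.8 to 536.7). The part of the marker levels in the members' results was not tested. In bulk RNA, fewer cells of a type and less RNA per cell cannot be told apart.

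The residue exchanged in the mutants lies in exon 2 of 4 in both H3.3 genes (GENCODE, build GRCm38, the same coordinates as mm10). The 63 bases around each codon are shown because they hold the exchanged residue, and editing was not shown here to be confined to them. The codon of lysine 27 in H3f3a is at chr1:180811843-180811845 on the minus strand, and that in H3f3b is at chr11:116023926-116023928 on the minus strand. Capitals mark the codon, AAG in H3f3a and AAA in H3f3b, in the C57BL/6J reference sequence read 5′ to 3′ along each gene. The sequences of the edited alleles were not analysed here.
H3f3a: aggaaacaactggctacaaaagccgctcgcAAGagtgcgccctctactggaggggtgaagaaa
H3f3b: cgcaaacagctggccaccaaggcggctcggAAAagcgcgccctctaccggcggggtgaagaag
The coding sequences of the 2 genes have 408 bases each, differ at 95 of them (76.7% identity) and share no run longer than 23 bases, in the coding sequence or over the whole transcripts. The reads were 150 bases long. The processed copies H3f3a-ps1, H3f3a-ps2 and H3f3c had no row in the count table, and neither had H3f3aos, which lies antisense to H3f3a.

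The first comparison asked whether cells that carry H3.3K27R express the H3.3 genes and their chaperones at the level of WT cells. Among the 10 members, Asf1b and Atrx were higher in the 4 mutant libraries than in the 2 WT libraries, and H3f3a, Hira, Ubn2 and Asf1a were lower (edgeR quasi-likelihood F-test, Benjamini-Hochberg adjusted p under 0.05 over all tested genes). The other 4, H3f3b, Ubn1, Cabin1 and Daxx, did not pass the test. No member changed by more than 2-fold, and the 95% interval of every member lay within 2-fold. Over all tested genes, 23.5% were higher and 24.5% lower by the same rule, and 8.93% differed by more than 2-fold as well. The share of members called, 6 of 10, is therefore to be read against 48.0% of all genes, and the median size of the members' log2 fold changes was 0.16 against 0.23 over all genes. The values of the 2 groups did not overlap for 6 members, against 59.8% of all tested genes. Those of Ubn2 and Atrx overlapped although both were called. The call of Ubn2 was lost in 7 of 14 alternatives, which are described below. Without WT replicate 2, Atrx no longer passed and 1 member was higher.

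The clones were also compared with WT one at a time, against the same 2 WT libraries. In Mut18, Asf1b and Atrx were higher and H3f3a, Hira and Asf1a lower, 2 and 3 of 10 members, against 20.3% of all tested genes higher and 21.0% lower (41.3% in either direction, 7.52% by more than 2-fold as well). In Mut43, Asf1b, Atrx and H3f3b were higher and H3f3a, Hira, Ubn2 and Asf1a lower, 3 and 4 of 10 members, against 22.9% and 23.9% of all tested genes (46.8% in either direction, 10.3% by more than 2-fold as well). No member passed 2-fold in either clone. The libraries of a clone and WT did not overlap for 7 members in Mut18 (69.2% of all tested genes) and for all 10 in Mut43 (72.8%). The number of members lower in Mut43 was 2 without Mut43 replicate 2. The call of Ubn2 in Mut43 (adjusted p = 0.0316) was lost in 8 of 13 alternatives, with adjusted p of 0.155 under DESeq2, 0.0694 with scaling on genes outside chromosome 11, 0.0644 without a filter, and 0.0556 to 0.365 without WT replicate 1 or any 1 of the 4 mutant libraries.

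**Figure D1:**
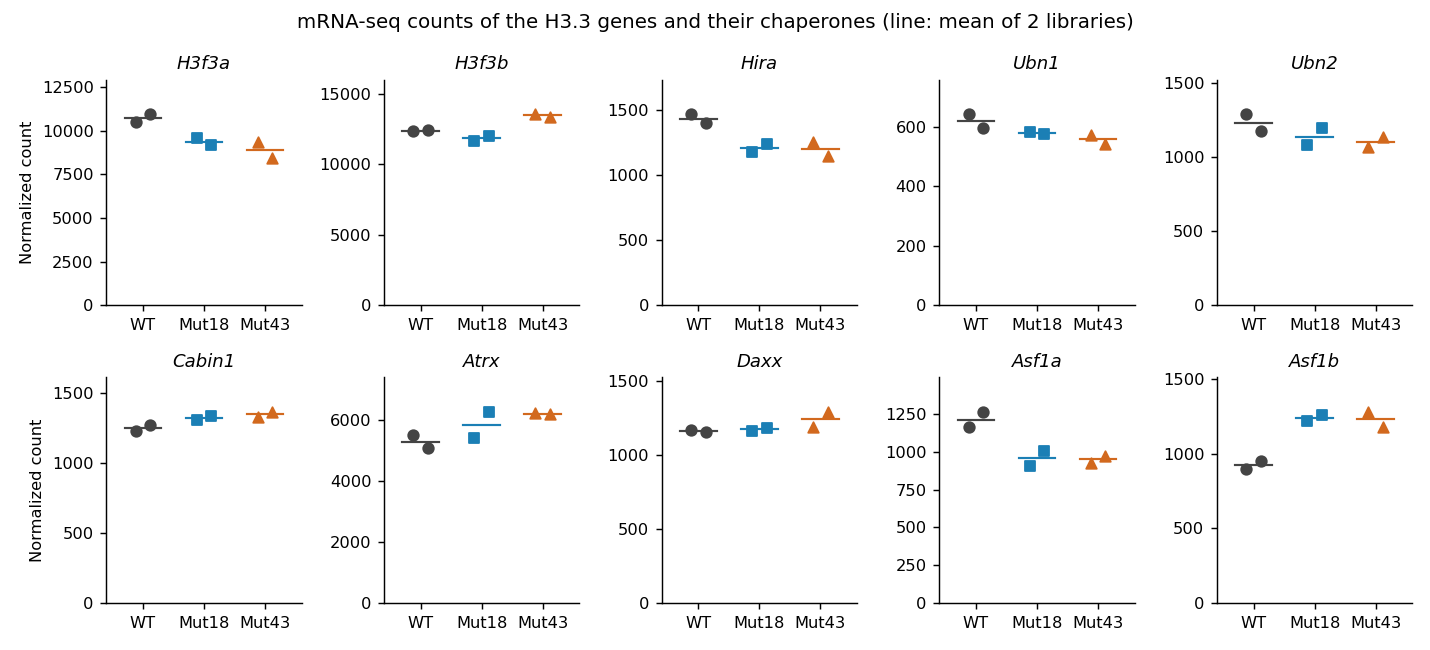
Normalized mRNA-seq counts (library sizes scaled by TMM, linear axis from 0) of the 10 members in the 2 WT, 2 Mut18 and 2 Mut43 libraries, with a line at the mean of each pair. The WT points of H3f3a, Hira and Asf1a lie above all 4 mutant points, those of Asf1b lie below them, and the H3f3b points of Mut18 and Mut43 lie on either side of WT.

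**Figure D2:**
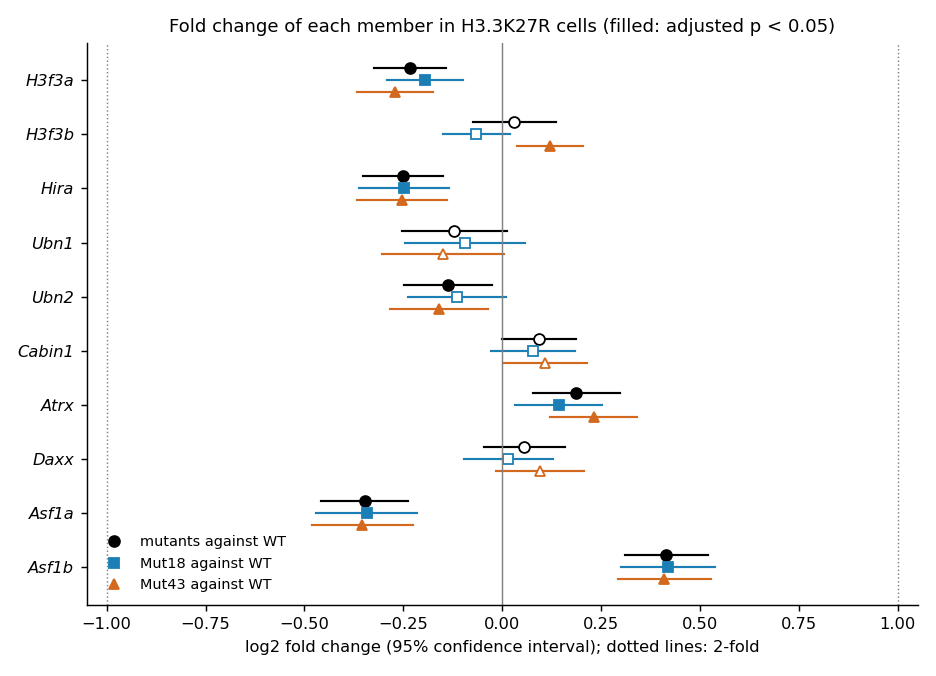
log2 fold change of each member for both clones together, for Mut18 and for Mut43 against WT, with 95% confidence intervals from edgeR. Filled symbols passed an adjusted p of 0.05, and dotted lines mark 2-fold. The intervals of all 10 members stay inside the dotted lines, and Asf1a and Asf1b lie farthest from 0, on opposite sides.

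H3f3a (ENSMUSG00000060743.12, chromosome 1, 180800832 to 180813943, minus strand) gave 10509.7 and 10937 normalized counts in the WT libraries, against 9559.9 and 9159.9 for Mut18 and 9329.7 and 8436 for Mut43. Both WT libraries were above all 4 mutant libraries. Its level fell by 14.9% in the mutants (log2 fold change -0.23, SE 0.043, edgeR adjusted p = 1.60e-04). Of all tested genes, 48.9% had a larger log2 fold change in size. The median log2 fold change of chromosome 1 was -0.07, and 28.0% of its genes had a lower value than H3f3a. Against the same 2 WT libraries, the log2 fold change was -0.20 in Mut18 (adjusted p = 0.00133) and -0.27 in Mut43 (adjusted p = 2.90e-05), and Mut18 without its replicate 2 gave an adjusted p of 0.0575. The antisense gene H3f3aos and the lincRNA Gm17275 overlap H3f3a on the opposite strand, and since the strand setting of the counting is not given in the sources used here, their reads cannot be told apart from its own.

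H3f3b (ENSMUSG00000016559.14, chromosome 11, 116021912 to 116027962, minus strand) gave 12378 and 12398 normalized counts in the WT libraries, against 11655 and 12026 for Mut18 and 13556 and 13386 for Mut43. Both Mut18 libraries were below WT and both Mut43 libraries were above it. Over both clones the log2 fold change was 0.03 (SE 0.050, 95% interval -0.07 to 0.13, edgeR adjusted p = 0.637), which is -4.95% to 9.80% on the linear scale. In Mut43 alone H3f3b rose by 8.74% against WT (adjusted p = 0.0162). In Mut18 its log2 fold change was -0.07 (95% interval -0.15 to 0.02, adjusted p = 0.210). The call in Mut43 did not hold with upper-quartile scaling (adjusted p = 0.0519) or without WT replicate 1 (adjusted p = 0.0531), Mut43 replicate 1 (adjusted p = 0.0941) or Mut43 replicate 2 (adjusted p = 0.0550).

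H3f3b was the member called between the clones. Its level was 13.8% higher in Mut43 than in Mut18 (log2 difference 0.19, SE 0.041, 95% interval 0.10 to 0.27, edgeR adjusted p = 0.0402). Such differences were rare, with 0.0640% of all tested genes higher and 0.263% lower in Mut43, so H3f3b was among 46 genes called (0.327%), of which 1 passed 2-fold (0.00711% of those tested). The number of genes called was 70 without WT replicate 1 and between 3 and 13 without any 1 of the 4 mutant libraries. The libraries of the 2 clones did not overlap for 3 members, against 38.5% of all tested genes. The call was lost with upper-quartile scaling (adjusted p = 0.0648) and without a filter on low counts (0.0759). Leaving out any 1 of the 4 mutant libraries also ended it, with adjusted p between 0.250 (without Mut18 replicate 2) and 0.731 (without Mut18 replicate 1), while the log2 difference stayed between 0.16 and 0.21. For the other 9 members no difference between the clones passed, nor was any unadjusted p under 0.05, and the widest of their intervals, that of Ubn1, ran from -0.21 to 0.10.

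Of 20 chromosomes, the one on which H3f3b lies had the highest median. Over the 933 genes of chromosome 11 with a mean of at least 50 counts, the log2 fold changes had a median of 0.39 in the mutants, against 0.00 over all tested genes and between -0.12 and 0.07 on each of the other chromosomes. H3f3b lay 0.36 below that median, and 13.4% of the genes of chromosome 11 had a lower log2 fold change. The lowest median was that of the X chromosome, where Atrx lay 0.31 above it. The part of this shift in the values of H3f3b was not tested.

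All 4 mutant libraries had a smaller share of H3f3a among the H3.3 reads than both WT libraries. Per kb of exon, H3f3a gave 41.9% and 42.8% of the H3.3 reads of the WT libraries. The shares were 41.1% and 39.3% for Mut18 and 36.9% and 34.9% for Mut43. The mean share was 42.4% ± 0.662 (SD, n = 2) in WT, 40.2% ± 1.26 (SD, n = 2) in Mut18 and 35.9% ± 1.43 (SD, n = 2) in Mut43. The summed H3.3 level in RPKM (counts scaled to exon length and library size) was 475 and 484 in WT. It was 441 and 442 for Mut18 and 479 and 459 for Mut43. The summed levels of Mut43 and WT overlapped, and both Mut18 libraries were below both. The share is given as a description, without a test.

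**Figure D3:**
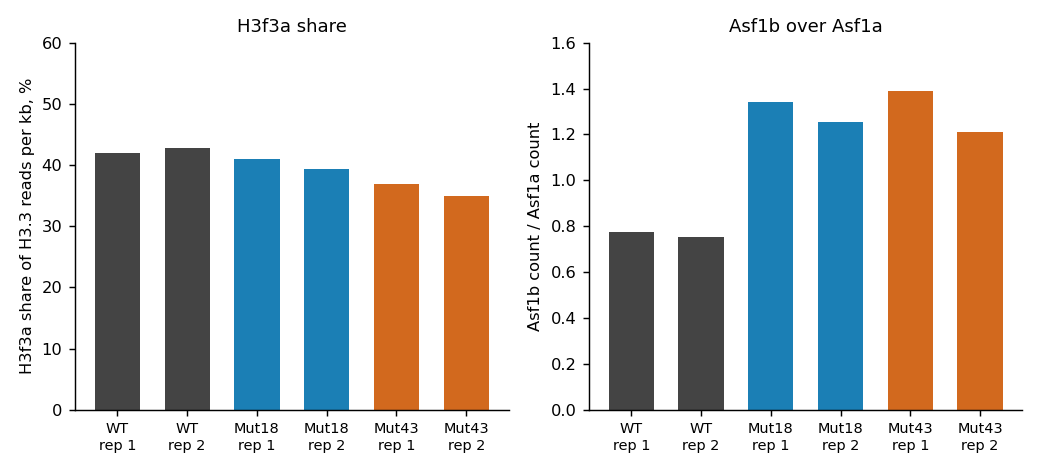
Left, share of H3f3a in the H3.3 reads per kb of exon, in percent, for each mRNA-seq library. Right, ratio of the Asf1b count to the Asf1a count in the same libraries. Bars start at 0. The share goes from 41.9% and 42.8% in WT down to 34.9% in Mut43 replicate 2, and the ratio is 0.775 and 0.753 in WT and above 1 in all 4 mutant libraries.

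Of the HIRA complex, Hira and Ubn2 were lower in the mutants and none was higher. Hira (chromosome 16), which encodes the WD-repeat scaffold of the complex, gave 1471 and 1403 normalized counts in the WT libraries, against 1176 and 1243 for Mut18 and 1259.8 and 1151 for Mut43. The WT libraries were above all mutant libraries, and the level fell by 16.0% (log2 fold change -0.25, SE 0.048, edgeR adjusted p = 2.09e-04). The log2 fold change was -0.25 in each clone, with adjusted p = 7.28e-04 in Mut18 and 5.03e-04 in Mut43, and Mut43 without its replicate 2 gave 0.0508. The annotated gene Gm28539, which has no row in the table, overlaps Hira on the same strand.

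Ubn1 and Ubn2 encode the ubinuclein subunits, which bind the H3.3 surface that distinguishes it from canonical H3. Ubn2 (chromosome 6) gave 1291 and 1174 normalized counts in the WT libraries, against 1080.35 and 1199 for Mut18 and 1071 and 1136 for Mut43. Mut18 replicate 2 lay inside the WT range, so the groups overlapped, and the adjusted p of 0.0412 was close to the threshold (log2 fold change -0.14, SE 0.054). It did not pass with DESeq2 (adjusted p = 0.111), without a filter on low counts (0.0708), with scaling on genes outside chromosome 11 (0.0943) or without WT replicate 1 (0.496), Mut18 replicate 1 (0.0968), Mut43 replicate 1 (0.126) or Mut43 replicate 2 (0.0571). Ubn1 (chromosome 16) had 642 and 595 normalized counts in WT and 542 to 584 in the mutants. The groups of Ubn1 did not overlap, but the log2 fold change of -0.12 (95% interval -0.25 to 0.01) did not pass (edgeR adjusted p = 0.123). Cabin1 (chromosome 10), the calcineurin-binding subunit, had 1232 and 1271 normalized counts in WT and 1308 to 1368 in the mutants. Its groups did not overlap either, with a log2 fold change of 0.09 (95% interval 0.00 to 0.19, adjusted p = 0.0905).

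Atrx and Daxx encode the remodeller and the histone chaperone of the other H3.3 deposition complex. Atrx (chromosome X) gave 5513 and 5070.15 normalized counts in the WT libraries, against 5415 and 6268 for Mut18 and 6218 and 6206 for Mut43. Mut18 replicate 1 lay inside the WT range and the other 3 mutant libraries lay above it. The level of Atrx rose by 13.9% over both clones (log2 fold change 0.19, SE 0.052, edgeR adjusted p = 0.00561). It rose in Mut43 (0.23, edgeR adjusted p = 8.95e-04, DESeq2 0.0515). In Mut18 the log2 fold change of 0.14 passed narrowly (adjusted p = 0.0355) and was lost with DESeq2 (0.297), with upper-quartile scaling (0.0609), with a minimum mean of 50 counts (0.0520) and without any 1 of WT replicate 2, Mut18 replicate 2, Mut43 replicate 1 or Mut43 replicate 2 (0.0755 to 0.630). Over both clones it did not pass without WT replicate 2 (adjusted p = 0.0839). Daxx (chromosome 17) gave 1169.7 and 1154 normalized counts in the WT libraries, against 1165 and 1183 for Mut18 and 1189.6 and 1292 for Mut43. Its log2 fold change was 0.06 (95% interval -0.05 to 0.16, edgeR adjusted p = 0.369), which is -3.21% to 11.6% on the linear scale.

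The ASF1 genes changed most among the members, and in opposite directions. ASF1 is the chaperone common to both deposition routes, and Asf1b is the paralog usually associated with proliferating cells. Asf1a (chromosome 10) gave 1161 and 1264 normalized counts in the WT libraries, against 908 and 1004 for Mut18 and 923 and 975 for Mut43. Asf1b (chromosome 8) gave 900.2 and 953 in the WT libraries, against 1219.5 and 1258 for Mut18 and 1282 and 1180.2 for Mut43. Neither gene overlapped between WT and mutants. Asf1a fell by 21.4% (log2 fold change -0.35, SE 0.053, edgeR adjusted p = 1.75e-05), and Asf1b was 33.3% higher (log2 fold change 0.41, SE 0.050, 95% interval 0.31 to 0.52, adjusted p = 9.02e-07).

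The clones gave nearly equal values for this pair. Against the WT libraries that both comparisons share, Asf1a had a log2 fold change of -0.34 in Mut18 and -0.35 in Mut43, and Asf1b 0.42 in Mut18 and 0.41 in Mut43. The direct difference between the clones was -0.01 for each (95% interval -0.14 to 0.12 for Asf1a and -0.12 to 0.11 for Asf1b). The ratio of Asf1b to Asf1a counts was 0.775 and 0.753 in the WT libraries, against 1.34 and 1.25 for Mut18 and 1.39 and 1.21 for Mut43. The sum of the 2 genes was 137 and 147 CPM in WT and 141 to 150 CPM in the mutants, so the sums overlapped. Neither change exceeded that of many other genes, since 36.1% of all tested genes had a larger log2 fold change in size than Asf1a and 30.4% a larger one than Asf1b. Mcm9 overlaps Asf1a on the opposite strand and was itself higher (167.6 and 194 normalized counts in WT, 218 to 238 in the mutants, log2 fold change 0.32, edgeR adjusted p = 0.00816), and without a stated strand setting the reads of this pair cannot be told apart.

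Of the motifs searched in all members, the promoters of both ASF1 genes held CCAAT and GGGCGG, in different numbers of matches. The 300 bases from 250 before to 50 after the RefSeq start are shown for this pair (build GRCm38.p6, plus strand for both, 5′ to 3′), at chr10:53596711-53597010 for Asf1a and chr8:83955444-83955743 for Asf1b. Capitals mark matches on either strand to CCAAT, to the GC box GGGCGG, to the TATA motif TATAAA, to the E-box CACGTG, to the ETS motif CCGGAAG or to the cAMP response element TGACGTCA, and overlapping matches were counted separately.
Asf1a: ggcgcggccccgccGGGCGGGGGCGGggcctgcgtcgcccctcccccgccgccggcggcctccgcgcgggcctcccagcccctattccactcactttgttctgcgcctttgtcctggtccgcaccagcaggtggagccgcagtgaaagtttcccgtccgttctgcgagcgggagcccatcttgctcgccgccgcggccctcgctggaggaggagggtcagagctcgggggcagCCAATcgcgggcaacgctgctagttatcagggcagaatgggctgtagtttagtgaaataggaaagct
Asf1b: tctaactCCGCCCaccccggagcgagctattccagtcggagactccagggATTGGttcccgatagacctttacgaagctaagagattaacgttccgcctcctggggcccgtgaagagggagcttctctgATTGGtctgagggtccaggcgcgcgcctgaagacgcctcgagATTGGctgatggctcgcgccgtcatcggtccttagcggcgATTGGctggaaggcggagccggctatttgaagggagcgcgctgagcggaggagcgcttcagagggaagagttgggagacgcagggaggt
Asf1a held 1 CCAAT and 2 GGGCGG matches, and Asf1b held 4 CCAAT matches and 1 GGGCGG match. Neither held any of the other motifs. Atrx and H3f3b also held 4 CCAAT matches each. Of 32817 annotated promoters of this length, 37.4% held CCAAT, 35.6% GGGCGG, 13.6% TATAAA, 7.15% CACGTG, 8.86% CCGGAAG and 1.79% TGACGTCA. A match is a description of the letters and does not show that a factor binds there.

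Levels can be compared between members only per length. In RPKM over the union of annotated exons, the mean over all 6 libraries was highest for H3f3b (280.4) and H3f3a (183), which ranked above 99.0% and 98.5% of the tested genes. Asf1b (32.2), Daxx (25.1), Asf1a (19.0), Atrx (17.6) and Hira (13.7) followed. Cabin1 (7.14), Ubn1 (4.70) and Ubn2 (3.59) were lowest, with Ubn2 at the 44.4th percentile of tested genes. The ranges over the 6 libraries overlapped between Asf1b and Daxx, between Asf1a and Atrx, and between Atrx and Hira. Within each of the 6 libraries, Asf1b stood above Daxx and Atrx above Hira. Asf1a stood above Atrx in both WT libraries (21.2 and 23.1 against 16.8 and 15.5). The 2 genes were nearly level in Mut18 replicate 1 (16.6 against 16.5), and Asf1a was below Atrx in Mut18 replicate 2 and both Mut43 libraries. With the length of the longest transcript instead, Atrx stood above Asf1a and Daxx.

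Genes around the members were described from 3 lists of histone chaperones, remodellers and partners, of which 35 of 36 genes were tested (Sp100 was not). Of the 35, 10 were higher, 8 were lower and 17 did not pass, none changed by more than 2-fold, and the median log2 fold change was 0.01, against 0.00 over all genes. These counts are to be read, here and for each list, against 23.5% of all tested genes higher and 24.5% lower, and the share of partner genes called was close to the 48.0% of all tested genes. The number that were lower was 4 without WT replicate 2 and 5 without either Mut18 replicate 1 or Mut43 replicate 1. Among 13 genes of H3-H4 chaperones and replication-coupled assembly, 1 was higher and 4 were lower. Hat1, which acetylates newly made H4, was higher (log2 fold change 0.32, SE 0.042, edgeR adjusted p = 2.47e-06). Dnajc9, a heat-shock cochaperone of H3-H4, was lower (-0.41, SE 0.050, adjusted p = 1.08e-06), as was Rbbp7, a subunit of the Hat1 complex (-0.33, SE 0.039, adjusted p = 4.69e-07).

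Among 10 chaperones and remodellers that act with transcription, 3 were higher and 2 were lower. Npm1, nucleophosmin, rose from 94452 and 96632 normalized counts in WT to between 125453 and 131748 in the mutants (log2 fold change 0.44, SE 0.032, edgeR adjusted p = 9.59e-10), and Supt6, an elongation factor that rebuilds nucleosomes behind RNA polymerase, rose by a like amount (0.43, SE 0.042, adjusted p = 4.98e-08). Chd1 (-0.11, SE 0.041, adjusted p = 0.0365) and Ssrp1, a subunit of FACT (-0.09, SE 0.036, adjusted p = 0.0473), were lower. Among 12 tested partners and readers of HIRA and ATRX-DAXX chromatin, 6 were higher and 2 were lower. Rpa1, the large subunit of the single-strand binding protein RPA with which HIRA interacts, rose from 4378 and 4544 normalized counts in WT to between 6761 and 7422 (0.67, SE 0.043, adjusted p = 1.19e-10), and Atf7ip, a partner of the methyltransferase Setdb1, rose as well (0.26, SE 0.043, adjusted p = 5.76e-05). Cbx5, heterochromatin protein HP1 alpha (-0.21, SE 0.038, adjusted p = 1.12e-04), and Zmynd11, a reader of methylated H3.3 (-0.19, SE 0.050, adjusted p = 0.00422), were lower. Npm1, Supt6 and Rpa1 lie on chromosome 11, whose median log2 fold change of 0.39 is given above.

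Many more genes followed the pattern of H3f3a over the 6 libraries than that of H3f3b. By Pearson's r of log2(normalized count + 1) over 6 libraries, the genes most like H3f3a were Prr7 (r = 0.996), Mapkapk2 (r = 0.995) and Asrgl1 (r = 0.994), and 1160 genes had r above 0.9 with it. The genes most like H3f3b were Slc16a1 (r = 0.975), B230217O12Rik (r = 0.970) and Pou2f2 (r = 0.963), and 41 genes had r above 0.9 with it. Over all tested genes the median of this number was 297, with fewer than H3f3a in 70.4% of genes and fewer than H3f3b in 11.5%. These values describe 6 points that fall into 3 lines and were not tested.

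The ATAC-seq peak lists were used to ask whether the members' promoters were open in all lines. A promoter peak was one that overlapped the 1000 bp centred on the start of an annotated protein-coding transcript. All 10 members had a promoter peak at 1 or more of their starts in each of the 6 libraries, as had 85.2% of the tested genes with such a start. Not every start had one. Starts with a peak in all 6 libraries were 5 of 5 for H3f3a, 2 of 2 for Hira and 1 of 1 for Asf1b. They were 1 of 2 for H3f3b and 2 of 4 each for Cabin1, Ubn2 and Asf1a. The lists held 78536 and 67416 peaks in WT and between 63588 and 69811 in the mutants, and WT replicate 1 covered the most sequence (33392097 bp, against 22634778 to 25603392 bp in the mutants and 25487565 bp in WT replicate 2). The member promoters held from 11 CpG in 300 bases (Atrx) to 39 (H3f3a). The median was 7 over all 32817 annotated promoters, of which 58.6% held fewer than 11. That background was not limited to tested genes, so it does not show whether the members differ from other expressed genes.

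The promoters of the H3.3 genes are shown because the peaks at H3f3a differed in form between genotypes, while those at H3f3b did not (RefSeq, build GRCm38.p6, minus strand, 5′ to 3′, 250 bases before to 50 after the start, capitals as above). That of H3f3a is at chr1:180813556-180813855 and that of H3f3b at chr11:116024455-116024754. The H3f3a window lies outside the stretch between the mutant peaks, which is described further below.
H3f3a: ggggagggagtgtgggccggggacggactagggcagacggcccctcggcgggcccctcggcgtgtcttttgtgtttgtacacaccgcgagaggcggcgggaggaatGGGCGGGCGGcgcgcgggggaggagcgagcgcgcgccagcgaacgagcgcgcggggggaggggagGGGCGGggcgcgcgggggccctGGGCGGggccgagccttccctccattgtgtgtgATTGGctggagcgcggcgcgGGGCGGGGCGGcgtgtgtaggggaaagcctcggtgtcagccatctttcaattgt
H3f3b: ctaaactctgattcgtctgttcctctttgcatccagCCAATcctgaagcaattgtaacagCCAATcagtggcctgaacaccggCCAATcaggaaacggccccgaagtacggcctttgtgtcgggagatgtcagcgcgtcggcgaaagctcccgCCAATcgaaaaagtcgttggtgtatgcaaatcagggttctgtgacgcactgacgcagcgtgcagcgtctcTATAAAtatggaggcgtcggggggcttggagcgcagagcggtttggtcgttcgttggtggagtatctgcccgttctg
The H3f3a window was 74% G or C and held 6 GGGCGG matches, 1 CCAAT match and no TATAAA. The H3f3b window was 55% G or C and held 4 CCAAT matches, 1 TATAAA match and no GGGCGG. No other member window held TATAAA.

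At H3f3b a peak of 836 to 1046 bp lay over the start in every library. It reached over the codon of lysine 27, 576 to 578 bp downstream of the start, in all libraries but Mut18 replicate 1. At H3f3a the form of the peak differed between the genotypes. Both WT libraries had 1 peak, of 1293 and 1133 bp, and all 4 mutant libraries had 2, of 421 to 641 bp over the start and of 215 to 281 bp upstream, with no peak in between. This observation was made after the values were seen. Among 11745 promoter regions with a peak in all 6 libraries, 1.50% had 1 peak in both WT libraries and at least 2 in every mutant library, and 0.0511% had the reverse pattern. The covered length was lower in every mutant than in both WT libraries at 36.3% of these regions and higher at 0.664%. The lists of Mut18 replicate 2 and Mut43 replicate 1 held more peaks than that of WT replicate 2. The median peak width was 333 and 298.5 bp in the WT lists, against 271 to 290 bp in the mutant lists. The median -log10 q was 22.3 and 20.4 in WT, against 19.5 to 20.1 in the mutants. The part of these list properties in the form of the H3f3a peak was not tested. At -log10 q of at least 20, the H3f3a promoter kept no peak in Mut43 replicate 1 (its -log10 q was 17.8), so 9 members kept a peak in every library.

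**Figure D4:**
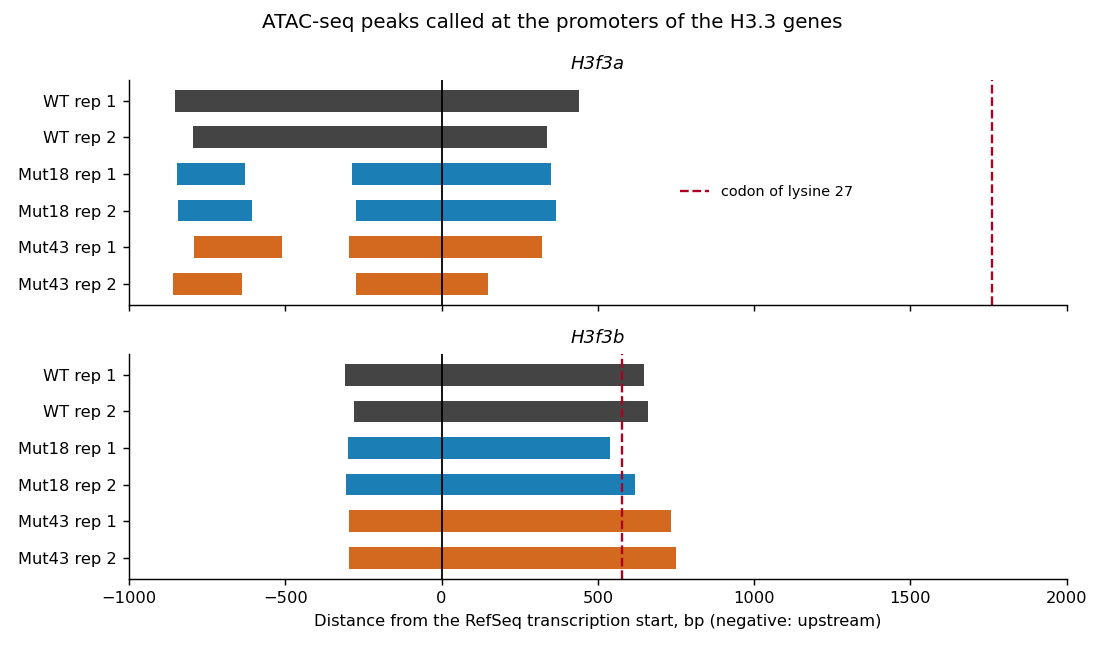
Position of the called ATAC-seq peaks at H3f3a and H3f3b in each library, in bp from the RefSeq transcription start (black line at 0, negative upstream), with the codon of lysine 27 as a dashed line. At H3f3a, 1 bar per WT library faces 2 bars per mutant library, and at H3f3b every library has 1 bar.

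The stretch without a peak in all 4 mutants was chr1:180813902-180814116 (215 bp, 78.6% G or C, 29 CpG), covered by a peak in both WT libraries. It holds the farthest upstream annotated start of H3f3a, at 180813943, and ends 2057 bp from the codon of lysine 27 at its near edge. The 173 bases of it upstream of that start, chr1:180813944-180814116 on the minus strand, are shown with the same motifs in capitals (1 GGGCGG match on the other strand).
H3f3a upstream: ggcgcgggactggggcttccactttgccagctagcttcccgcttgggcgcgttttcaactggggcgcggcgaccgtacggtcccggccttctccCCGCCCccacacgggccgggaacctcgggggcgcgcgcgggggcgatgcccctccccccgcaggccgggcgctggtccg

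Peak strength was compared by the rank of a member's strongest promoter peak within its own list, as a percentile by -log10 q (100 is the strongest), since -log10 q and fold enrichment are not on a common scale between libraries. H3f3a stood at percentiles 74.1 and 82.7 in the WT libraries, against 56.8 and 58.5 for Mut18 and 40.8 and 64.4 for Mut43. All mutant libraries were below both WT libraries, and the mean percentile differed by -23.3 points (78.4 ± 6.10 in WT against 55.1 ± 10.1 in the mutants, SD, n = 2 and 4, two-sided exact permutation p = 0.133). With 2 against 4 libraries 0.133 is the smallest p that the test can give. Ubn1 also did not overlap, with 96.7 and 94.7 in WT and 96.9 to 99.1 in the mutants (2.37 points higher, two-sided exact permutation p = 0.133). Without overlap stood 23.0% of all genes with a peak in every library, so 2 of 10 members is near that share. In lists of equal length, made of the 63588 strongest peaks of each library, Daxx joined these members, and the share over all genes was 22.1%. By fold enrichment over the median of the list, the groups of H3f3a overlapped (0.882 and 0.939 in WT, 0.727 to 0.882 in the mutants, two-sided exact permutation p = 0.267). Those of Ubn1, Cabin1, Daxx and Asf1a did not, 4 of 10 members against 24.3% of all genes with a peak in every library.

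By rank in the full lists, the groups of the other 8 members overlapped. Daxx had the widest difference of these, 8.38 points (76.5 ± 8.41 in WT against 84.9 ± 3.36 in the mutants, SD, n = 2 and 4, two-sided exact permutation p = 0.267), and it was 2.44 points without WT replicate 2 and 14.3 points without WT replicate 1. Asf1b was at percentile 98.3 or above in every library, and Asf1a between 87.4 and 92.0. The mean differences of this pair were 0.456 points for Asf1b and 1.66 points for Asf1a (two-sided exact permutation p = 0.400 for each). Atrx had a wide spread among the mutants, from 55.6 in Mut43 replicate 1 to 80.7 in Mut18 replicate 1. Hira has 2 promoter regions, each with a peak in every library, and the stronger was the upstream one in WT replicate 1 and both Mut43 libraries and the downstream one in the other 3.

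**Figure D5:**
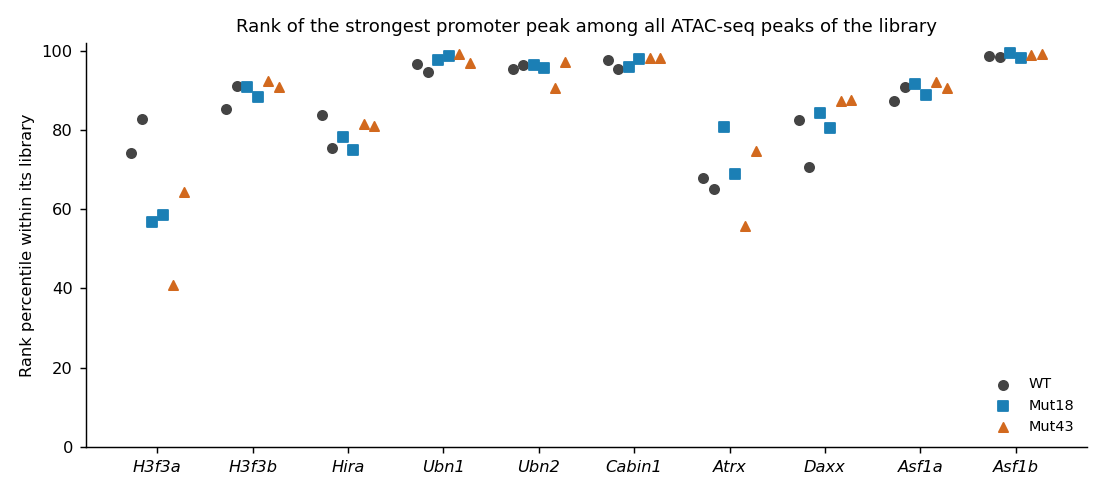
Percentile of the strongest promoter peak of each member among all ATAC-seq peaks of the same library (100 is the strongest), with 1 point for each of 6 libraries. H3f3a shows the widest gap, from 74.1 and 82.7 in WT to 40.8 in Mut43 replicate 1, and Asf1b stays at 98.3 or above in all libraries.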

How the data were processed

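Per the labels, mRNA-seq was made from total RNA and ATAC-seq from nuclei, with 2 biological replicates of each of 3 lines. The list of member names and the lists of partner and marker genes were drawn up with earlier results of these data known. Samples were assigned to line and replicate by their titles. The ChIP-seq samples were not analysed here.

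The mRNA-seq counts were deposited by the authors as whole numbers of reads for each gene and had not been normalized; the reference was mm10 joined to dm6. The submitters' processing notes name STAR, Bowtie2 2.3.4.2, SAMtools, DESeq2, deepTools 3.3.0 and, for ATAC-seq, MACS2, without their roles. The counting program, annotation and strand setting are not given in the sources used here. The deposited ATAC-seq lists hold the peaks called by the authors in single libraries, with fold enrichment, -log10 p, -log10 q and a display score. Of these, -log10 q ranked peaks within a list and fold enrichment served as an alternative. The lists give no read depth, and each is cut at a -log10 q of about 6.00.

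Tests used edgeR 4.0.16 in R 4.3.3 (filterByExpr with minimum count 10 and minimum total 15, TMM, glmQLFit and glmQLFTest, Benjamini-Hochberg over 14061 genes). Both clones together (n = 4) were compared with WT (n = 2) in a fit of 2 groups, and each clone with WT and with the other in a fit of 3 groups. Intervals are at 95%. Normalized counts are counts divided by the TMM-scaled library size relative to the mean, and RPKM and CPM use the same scaled sizes. Of 16263 rows, 15618 matched GENCODE by symbol, 477 by an older symbol, and 168 were left without a place. Promoter peaks overlapped 1000 bp windows by at least 1 bp and were compared over libraries by an exact two-sided permutation test in Python 3.11.15. Sequences were read from the GRCm38 reference with samtools 1.23.1 and from RefSeq promoters, where all 10 members matched and Daxx had 3 starts. No peak lay beyond the end of the 21 chromosomes compared.

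All members are named, with the partner genes of lowest p per list and direction (at most 2), copies of the H3.3 genes, the 3 genes most like each H3.3 gene and the marker Pou5f1. Mcm9, Lum, Fap, Sp100, Col4a1 and Gata4, and the overlapping genes without a row, fall outside that rule and were named after their values were seen. Same-numbered replicates did not deviate together (correlations of their deviations over 11076 genes between -0.05 and 0.00), so the numbers were not used as pairs. Replicates of a line differed beyond counting error (chi-square per gene 1.81 to 3.06). Alternatives were DESeq2 1.42.0, other scalings and filters, a replicate block, each library left out, other lengths, and other windows, list lengths and thresholds for peaks.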

Additional observations from a re-analysis of the deposited data

Results flagged for a closer look

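Results of 2 kinds were picked out by fixed rules. The level of Atrx in Mut18 replicate 1 was 5415 normalized counts, apart from the other 3 mutant libraries (6206 to 6268), by a gap over range of 0.928, above Dixon's 95% critical value for 4 samples. The rank percentile of the Cabin1 promoter peak in Mut18 replicate 1, 95.9, lay apart from the other 3 mutant libraries (97.9 to 98.3) by a gap over range of 0.831. A total of 22 sets of 4 mutant libraries were examined in this way, 2 stood out, and chance alone picks out about 1 in 20. The effect against WT differed between the clones for H3f3b, by 0.19 on the log2 scale (edgeR quasi-likelihood F-test, adjusted p = 0.0402), and that call was lost without any 1 of the 4 mutant libraries.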

How the results depend on the processing

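Over both clones, the calls of H3f3a, Hira, Asf1a and Asf1b passed under all 14 alternatives, with log2 fold changes of -0.26 to -0.20, -0.28 to -0.21, -0.41 to -0.28 and 0.38 to 0.46. The call of Atrx was lost in 1 alternative and that of Ubn2 in 7, and Cabin1 passed with scaling factors from genes outside chromosome 11 (0.12, edgeR adjusted p = 0.0324). That scaling left 5 partner genes lower in place of 8. The cause of these shifts was not tested. In Mut18, 1 member was higher in place of 2 under upper-quartile factors, DESeq2, a minimum mean of 50 counts and the replicate block, Atrx being lost in each (block 0.14, adjusted p = 0.0511). Between the clones 0 members were called under upper-quartile factors, no filter and the replicate block, where H3f3b had 0.19 (adjusted p = 0.0815). The block changed no other member's call, and it moved the count of all genes called over both clones from 6749 to 6604. DESeq2 called 1749 genes lower in Mut18 (edgeR 2957), 2189 in Mut43 (3363) and 18 between the clones (37), and edgeR without a filter called 5 higher and 19 lower between the clones (9 and 37). With 1 library left out, members higher ran from 1 to 2 over both clones and in Mut18, members lower from 2 to 4 in Mut43, partner genes lower from 4 to 8, and members called between the clones from 0 to 1. An arm left with 1 library was taken to vary like the others. Directions between the clones changed for Hira (-0.073 to 0.059), Ubn2 (-0.12 to 0.031), Atrx (-0.013 to 0.199), Asf1a (-0.081 to 0.064) and Asf1b (-0.070 to 0.050), none of which was called. Rank differences at promoters changed sign for H3f3b (-0.402 to 5.39 points), Hira (-4.97 to 3.34), Ubn2 (-1.82 to 0.366), Cabin1 (-0.0968 to 2.25), Atrx (-0.181 to 8.16) and Asf1a (-0.0289 to 3.34). Fold enrichment over the median of the list, in place of rank, reversed H3f3b (-0.0515), Hira (0.0268) and Ubn2 (0.0626) and ended the separation of H3f3a (p = 0.267, exact permutation). Lists of equal length reversed Hira (0.674 points). The mean H3f3a rank was lower in the mutants under each of the other alternatives except the stricter threshold, where it could not be computed and the groups of all 9 members with a peak in every library overlapped. The difference in the H3f3a share stayed between -5.35 and -3.29 points. The 2 WT libraries, 1 clone for each mutant line, no read depth for the peaks and no strand setting limit these values.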
